A study of Oryza sativa with 12 samples.

Results

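Alpha-amylases were followed in caryopses of rice through the 9 loci that the locus list names, which are RAmy1C, RAmy1A, RAmy2A, RAmy3E, RAmy3D, a pair of RAmy3 loci on chromosome 9, LOC_Os01g25510 and LOC_Os04g33040. They were chosen by locus identifier and not by a rule on measured values, although earlier results of these data were known. Of the 35587 genes listed in at least 1 library, 8 were alpha-amylases, and LOC_Os01g25510 was listed in none. Levels are in FPKM, which counts sequenced fragments relative to transcript length and to the mapped total of a library. Genes averaging 1 FPKM or more across all 12 libraries were tested, 21470 in all, and 5 of the 9 loci were among them. RAmy1C and RAmy3D passed that filter only through *RGB1Ri-5* at 5 DAF, since their means over the other 3 groups were 0.0625 and 0.629 FPKM. They therefore had to be higher in that group than the mean of the others, and their differences from it are given as a description of size.

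*WYJ8*, the japonica cultivar Wuyujing 8, served as wildtype, and *RGB1Ri-5* is 1 transgenic line in that background in which *RGB1*, the gene of the G protein beta subunit, is targeted by RNA interference. The hairpin carries a piece of *RGB1* from Nipponbare cDNA and is driven by the maize ubiquitin promoter, which is active in most tissues. Field-grown plants received no further treatment that the labels name, and grains were taken at 5 and 10 days after flowering (DAF). There were 3 libraries in each of the 4 groups (*WYJ8* at 5 DAF, *RGB1Ri-5* at 5 DAF, *WYJ8* at 10 DAF and *RGB1Ri-5* at 10 DAF), and grains of many labelled panicles were sampled together. Biological replication is stated for the quantitative PCR of the study and not for the sequencing, so the p-values measure only the spread between these samples, which may be technical.

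Alpha-amylase cuts starch inside the glucan chain and so opens the granule to the enzymes that act on chain ends. In cereals it is best known from germination, when gibberellin induces it in the aleurone and scutellum, and some rice isoforms are induced by sugar starvation instead. In the young caryopsis the pericarp holds starch for a short time and loses it while the endosperm begins to fill, so the comparison asks which alpha-amylase transcripts were present at these early stages and how they differed between the genotypes.

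The RNAi target was examined first. *RGB1* (LOC_Os03g46650, chromosome 3, 26398522 to 26406544, MSU Release 7) had 36.0, 38.7 and 34.9 FPKM in *WYJ8* at 5 DAF and 25.1, 30.6 and 25.2 FPKM in *RGB1Ri-5*. In the later samples it had 18.4, 18.7 and 16.1 FPKM in *WYJ8* and 44.5, 39.7 and 42.1 FPKM in *RGB1Ri-5*. The libraries labelled *RGB1Ri-5* were thus lower at 5 DAF (log2 fold change -0.43, SE 0.11, adjusted p = 0.00537, which is under the fold limit for a call) and higher at 10 DAF (1.20, SE 0.11, adjusted p = 3.89e-06), and the latter goes against the label. After rescaling by the median of ratios the 10 DAF difference was 0.24 (adjusted p = 0.0358). Every direction given below for *RGB1Ri-5* refers to the libraries so labelled, and at 10 DAF their measured *RGB1* level was not lower than that of *WYJ8*. The hairpin carries a piece of *RGB1*, so its reads and those of the gene itself cannot be told apart in these values. Whether the transcript of the gene itself was reduced is therefore not shown.

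The libraries listed 27055 to 29576 genes each, and their depth is unknown because only FPKM were used. The 100 highest genes took 48.7 to 52.8% of the summed FPKM in *WYJ8* at 10 DAF and 12.9 to 22.4% in the other 9 libraries. Across the tested genes the median difference on the log2 scale was 0.80 for *RGB1Ri-5* minus *WYJ8* at 10 DAF and -0.77 for 10 minus 5 DAF in *WYJ8*, and it became 0.00 and 0.01 after rescaling by the median of ratios. A difference in those comparisons is therefore read against that shift. The third *WYJ8* replicate at 5 DAF and the second *RGB1Ri-5* replicate at 10 DAF stood apart from their groups in markers of endosperm and embryo, and results that rest on them are also given without them.

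The summed level of the 9 loci was made up of different isoforms in the 4 groups. It was 35.4, 40.5 and 66.5 FPKM in *WYJ8* at 5 DAF and 86.1, 132 and 67.6 FPKM in *RGB1Ri-5* at 5 DAF. It was 137, 142 and 160 FPKM in *WYJ8* at 10 DAF and 32.1, 31.9 and 34.9 FPKM in *RGB1Ri-5* at 10 DAF. The sum was highest in all 3 *WYJ8* libraries of 10 DAF and lowest in the 3 *RGB1Ri-5* libraries of 10 DAF, whereas the genotypes were next to each other but did not overlap at 5 DAF. RAmy2A made up 43.8 to 58.3% of the sum in *RGB1Ri-5* at 5 DAF, and RAmy3E made up 85.8 to 89.8% in *WYJ8* at 10 DAF. LOC_Os04g33040 made up 78.1 to 89.2% in *RGB1Ri-5* at 10 DAF and 34.3 to 73.0% in *WYJ8* at 5 DAF. The low end of the last range is the third replicate, in which RAmy3E took 59.8%.

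**Figure D1:**
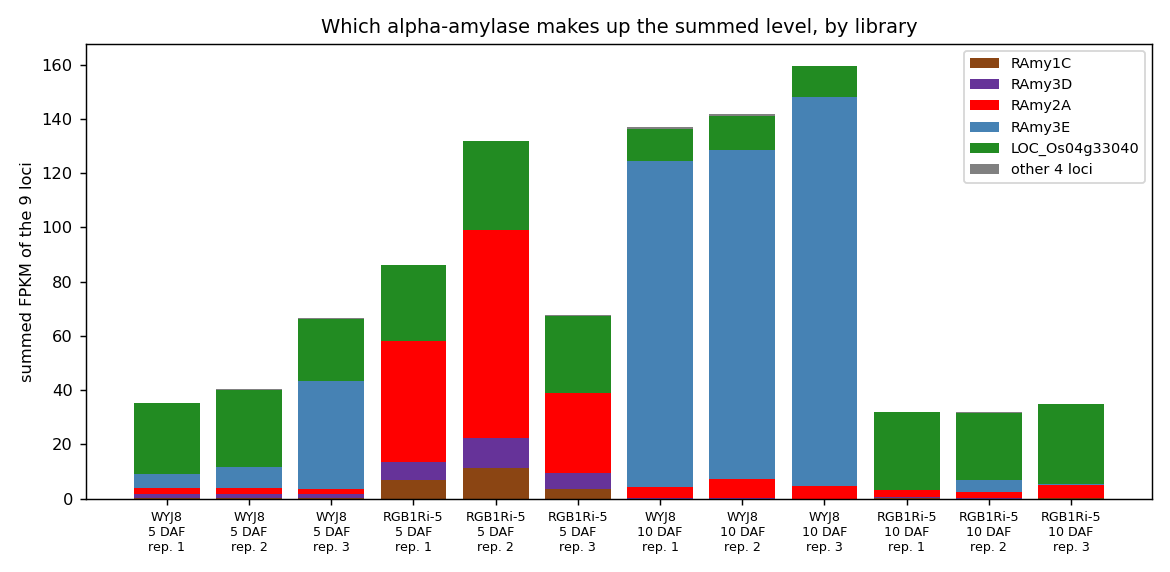
Summed FPKM of the 9 alpha-amylase loci in each of the 12 libraries (vertical axis, FPKM), with each bar divided by locus. RAmy2A (red) is the largest part in the 3 *RGB1Ri-5* libraries of 5 DAF, RAmy3E (blue) in the 3 *WYJ8* libraries of 10 DAF, and LOC_Os04g33040 (green) in the 3 *RGB1Ri-5* libraries of 10 DAF.

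RAmy2A (LOC_Os06g49970, chromosome 6, 30262777 to 30266915) reached the highest level of any alpha-amylase in young *RGB1Ri-5* caryopses. It had 1.96, 2.29 and 2.15 FPKM in *WYJ8* at 5 DAF and 44.8, 76.9 and 29.6 FPKM in *RGB1Ri-5* at 5 DAF. At 10 DAF it had 4.09, 7.01 and 4.66 FPKM in *WYJ8* and 2.54, 2.38 and 4.97 FPKM in *RGB1Ri-5*. All 3 *RGB1Ri-5* libraries of 5 DAF lay above the other 9 libraries, and the genotypes overlapped at 10 DAF. The means were 50.4 ± 24.1 against 2.13 ± 0.17 FPKM at 5 DAF (SD, n = 3), a ratio of 23.7. On the log2(FPKM + 1) scale the difference was 3.93 (SE 0.31, adjusted p = 2.06e-06). The 10 DAF difference was -0.56 (SE 0.31, adjusted p = 0.115) and did not pass the test, although it was -1.40 (adjusted p = 0.00228) after rescaling by the median of ratios. Between 5 and 10 DAF, RAmy2A fell by 3.53 on the log2 scale in *RGB1Ri-5* (SE 0.31, adjusted p = 6.25e-06).

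RAmy1C (LOC_Os02g52700, chromosome 2, 32243145 to 32245056) was also higher in *RGB1Ri-5* at 5 DAF, the only group through which it passed the filter. It had 6.80, 11.4 and 3.74 FPKM there, against 0.119, 0.0658 and 0.0601 FPKM in *WYJ8*. Later it was listed in none of the *WYJ8* libraries and had 0.250 and 0.0681 FPKM in *RGB1Ri-5* replicates 1 and 3, with no listing in replicate 2. Only the *RGB1Ri-5* libraries of 5 DAF exceeded 1 FPKM, and they did not overlap with any other library. The log2 fold change at 5 DAF was 2.83 (SE 0.27) and became 5.23 with a pseudocount of 0.1, since the *WYJ8* values lie far below the pseudocount of 1. From 5 to 10 DAF RAmy1C fell by 2.81 in *RGB1Ri-5*. The filter had largely fixed the direction of both differences, so they describe size only.

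RAmy1A (LOC_Os02g52710, chromosome 2, 32248278 to 32250180) lies 3221 bases from RAmy1C and is best known as the gibberellin-induced isoform of the germinating grain. It did not exceed 0.0358 FPKM in any library and was listed in 5 of the 12, which are 1 library of *WYJ8* and 1 of *RGB1Ri-5* at 5 DAF and all 3 of *RGB1Ri-5* at 10 DAF. At 5 DAF in *RGB1Ri-5* every library of RAmy1C, from 3.74 to 11.4 FPKM, lay above every library of RAmy1A.

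RAmy3D (LOC_Os08g36910, chromosome 8, 23340675 to 23343533), known from cultured rice cells as an isoform induced by sugar starvation, followed the same order. It had 1.78, 1.69 and 1.48 FPKM in *WYJ8* at 5 DAF and 6.60, 10.9 and 5.74 FPKM in *RGB1Ri-5* at 5 DAF. Later it had 0.146, 0.0963 and 0.0194 FPKM in *WYJ8* and 0.258, 0.117 and 0.0831 FPKM in *RGB1Ri-5*. The genotypes did not overlap at 5 DAF and overlapped at 10 DAF, and every 5 DAF library lay above every 10 DAF library. The means at 5 DAF were 7.73 ± 2.74 and 1.65 ± 0.15 FPKM (SD, n = 3), a ratio of 4.69, and the log2 fold change was 1.68 (SE 0.19). RAmy3D fell with stage in both genotypes, by 1.28 in *WYJ8* (adjusted p = 8.81e-05) and by 2.88 in *RGB1Ri-5* on the log2 scale. It passed the filter only through *RGB1Ri-5* at 5 DAF, so its differences from that group had a largely fixed direction. They describe size only. The decrease in *WYJ8* was -0.72 (adjusted p = 0.0118) after quantile normalization, which is under the fold limit.

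Within *RGB1Ri-5* at 5 DAF, replicate 2 had the highest level of RAmy2A, RAmy1C and RAmy3D and replicate 3 the lowest. The spread of these 3 loci in that group was therefore shared between them.

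RAmy3E (LOC_Os08g36900, chromosome 8, 23335164 to 23337151) lies 3523 bases from RAmy3D and differed in the opposite direction. It had 5.41, 7.45 and 39.7 FPKM in *WYJ8* at 5 DAF, whereas in *RGB1Ri-5* it had 0.0351 and 0.0300 FPKM in replicates 1 and 2 and was not listed in replicate 3. At 10 DAF it had 120, 122 and 143 FPKM in *WYJ8* and 0.158, 4.28 and 0.153 FPKM in *RGB1Ri-5*. The genotypes did not overlap at either stage, and the highest library of each 5 DAF *WYJ8* and 10 DAF *RGB1Ri-5* group was the one that stood apart in endosperm and embryo markers. At 10 DAF the means were 128 ± 13.0 and 1.53 ± 2.38 FPKM (SD, n = 3).

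RAmy3E was downregulated in *RGB1Ri-5* at 5 DAF (log2 fold change -3.67, SE 0.66, adjusted p = 0.000694), a value that was -2.85 (adjusted p = 0.00147) without the third *WYJ8* replicate. At 10 DAF the log2 fold change was -6.07 (SE 0.66, adjusted p = 1.04e-05), and it was -6.80 (adjusted p = 1.50e-06) without the second *RGB1Ri-5* replicate. In *WYJ8* RAmy3E rose from 5 to 10 DAF by 3.31 (SE 0.66, adjusted p = 0.00069), a ratio of means of 7.32. In *RGB1Ri-5* the stage difference of 0.91 did not pass the test (adjusted p = 0.291) and was 0.18 without the second replicate of 10 DAF. With a pseudocount of 0.1 the 5 DAF difference was -6.62, since the *RGB1Ri-5* values lie near 0.

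LOC_Os04g33040 (chromosome 4, 20006127 to 20009276) was the steadiest alpha-amylase. It had 25.8, 28.5 and 22.8 FPKM in *WYJ8* at 5 DAF and 27.8, 32.6 and 28.4 FPKM in *RGB1Ri-5*. At 10 DAF it had 11.9, 12.6 and 11.5 FPKM in *WYJ8* and 28.6, 24.9 and 29.5 FPKM in *RGB1Ri-5*. Only *WYJ8* at 10 DAF lay apart, below the other 9 libraries, which overlapped. The difference at 5 DAF was 0.20 (SE 0.11, adjusted p = 0.155). At 10 DAF it was 1.14 (SE 0.11, adjusted p = 5.96e-06), close to the median of all genes of 0.80, and it was 0.19 (adjusted p = 0.0446) after rescaling by the median of ratios. The decrease with stage in *WYJ8* of -1.03 (adjusted p = 1.32e-05) likewise became -0.10 (adjusted p = 0.28), so both calls rested on the scale of the values.

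The pair on chromosome 9 was low throughout. LOC_Os09g28420 (17296165 to 17305076) had 0.234 to 0.536 FPKM in *WYJ8* and 0.0323 to 0.145 FPKM in *RGB1Ri-5* at 5 DAF, and 0.0951 to 0.513 FPKM and 0.131 to 0.204 FPKM at 10 DAF. The genotypes did not overlap at 5 DAF and did at 10 DAF, but the locus stayed under the filter, and a fit to every gene gave -0.29 (adjusted p = 0.0867) at 5 DAF. LOC_Os09g28400 (17288992 to 17291295) was listed at 0.0345 FPKM in the second *RGB1Ri-5* library of 10 DAF and in no other. Related alpha-amylase loci can share reads, and how reads that fit several loci were divided is not given in the sources used here, so the lowest values are uncertain.

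**Figure D2:**
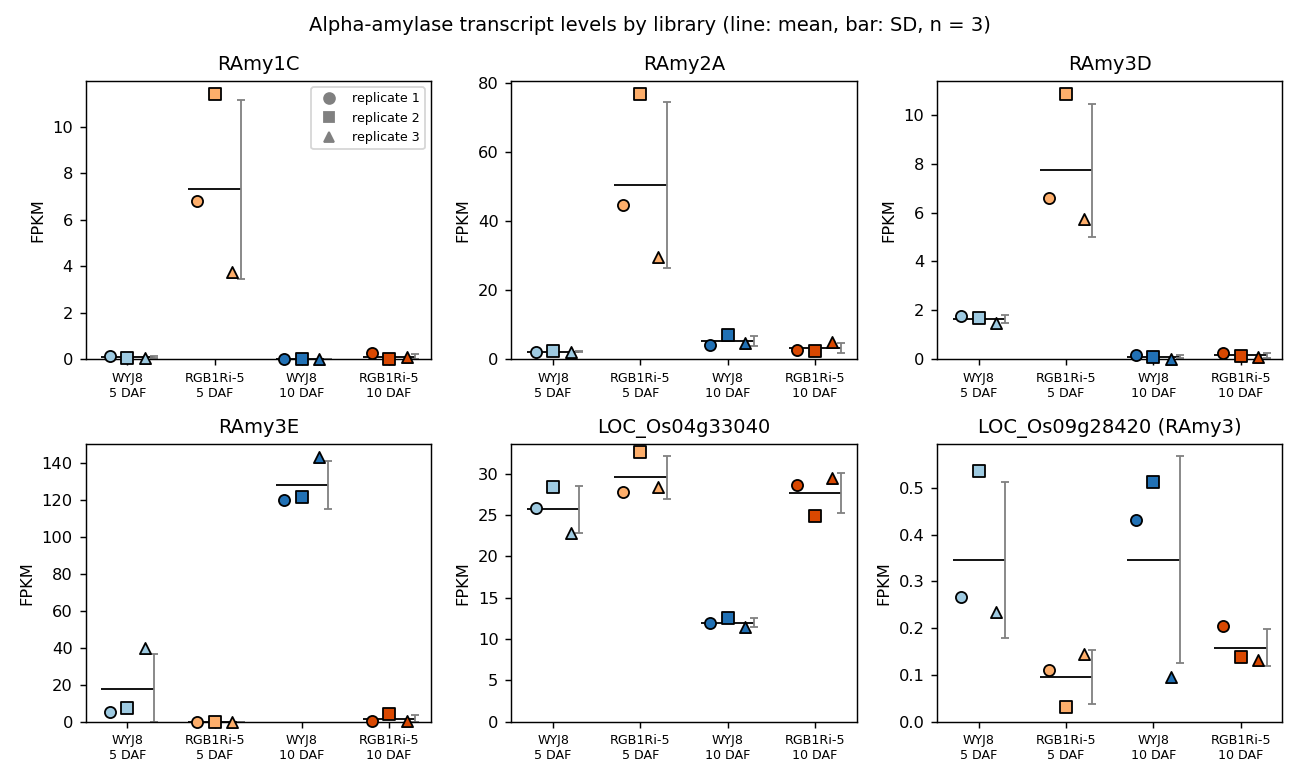
FPKM (vertical axis, linear, a separate scale in each panel) of 6 alpha-amylase loci in the 4 groups, with a symbol for each replicate, a line for the mean and a bar for the SD (n = 3, cut at 0). RAmy1C, RAmy2A and RAmy3D are highest in *RGB1Ri-5* at 5 DAF, RAmy3E is highest in *WYJ8* at 10 DAF with all 3 libraries at or above 120 FPKM, and LOC_Os04g33040 is lowest in *WYJ8* at 10 DAF.

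Counted over the family, RAmy2A was called higher and RAmy3E lower in *RGB1Ri-5* at 5 DAF among the 3 loci that passed the filter without their highest group, where 10.8% of all tested genes were called higher and 10.1% lower. RAmy1C and RAmy3D were also called higher, a direction that the filter had largely fixed, and nothing is read from their part in the counts. For a call, the adjusted p had to be under 0.05 and the log2 difference 1 or more, up or down. At 10 DAF 1 locus was called higher, LOC_Os04g33040, and 1 lower, RAmy3E, where 36.4% of all tested genes were called higher and 3.33% lower. After rescaling by the median of ratios limma called 0 loci higher at 10 DAF (1 at an unadjusted p under 0.05) and 2 lower, RAmy2A and RAmy3E, against 9.25% and 9.09% of all tested genes. With stage in *WYJ8* 1 locus rose and 2 fell, against 2.11% and 33.3% of all tested genes, and the counts were 2 and 1 after that rescaling, against 7.05% and 7.37%. RAmy2A then rose by 1.77 (adjusted p = 0.00069). With stage in *RGB1Ri-5* RAmy2A fell among those 3 loci, where 7.56% of all tested genes rose and 9.35% fell. RAmy1C and RAmy3D were called lower as well, again in the direction that the filter had largely fixed, and 0 of the 5 loci rose by limma, at an unadjusted p under 0.05 too.

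The genotype effect was called lower at 10 DAF than at 5 DAF by the interaction term for RAmy2A and RAmy3E among the 3 loci that passed without their highest group, where 41.4% of all tested genes were called higher and 6.94% lower in the interaction. The change of the effect was -4.50 for RAmy2A (adjusted p = 8.07e-06). For RAmy3E it was -2.40 (adjusted p = 0.0344), and this call was lost in 12 of 22 alternatives. RAmy1C (-2.70) and RAmy3D (-1.60) were called too, with a direction that followed largely from their passing only through *RGB1Ri-5* at 5 DAF. The 5 DAF difference and the 10 DAF difference come from separate libraries, but the stage contrasts and the interaction share libraries with them and are not further evidence.

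**Figure D3:**
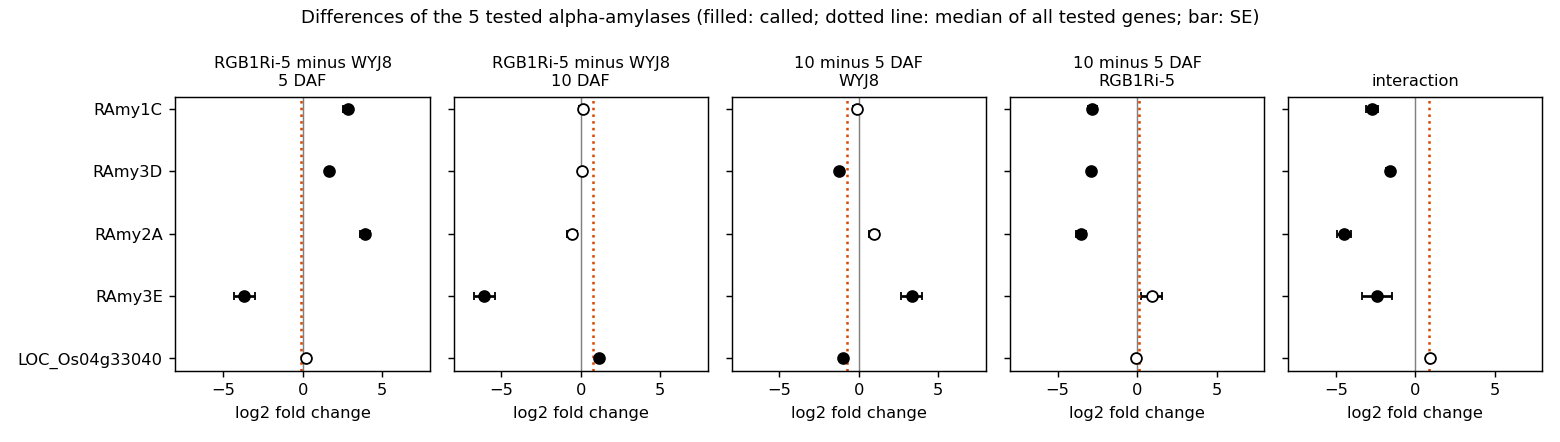
Log2 fold change of log2(FPKM + 1) with its SE for the 5 tested loci in the comparisons of genotype at each stage, of stage in each genotype, and in the interaction (genotype effect at 10 DAF minus that at 5 DAF). Filled points were called, and the dotted line is the median of all tested genes, 0.80 for the genotypes at 10 DAF. RAmy2A, RAmy1C and RAmy3D lie right of 0 at 5 DAF, and RAmy3E lies left of 0 at both stages.

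The isoforms moved together with markers of the tissues in the grain. Green pericarp was represented by 11 genes of light harvesting and photosynthesis, and their summed level was 1438 to 1900 FPKM in *WYJ8* and 6149 to 7250 FPKM in *RGB1Ri-5* at 5 DAF, with 8 genes called higher and 1 lower, against 10.8% and 10.1% of all tested genes. CAB1R and CAB2R, chlorophyll a/b-binding proteins, rose most, by 2.93 and 2.68 on the log2 scale. At 10 DAF the sum was 1605 to 2158 and 2032 to 3943 FPKM, and limma called 5 genes higher and 0 lower (1 lower at an unadjusted p under 0.05), or 0 higher (3 at an unadjusted p under 0.05) and 3 lower after rescaling by the median of ratios. The shares of all tested genes there were 36.4% and 3.33%, or 9.25% and 9.09% after rescaling. All 11 were listed in every library. The study names the sequenced material both caryopsis and grains and does not state that hulls were removed. The part of other green tissue in these sums was not tested.

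Starchy endosperm was represented by 11 genes of starch synthesis, storage protein and NF-YB1. Their sum was 6421 to 18562 FPKM in *WYJ8* and 94.9 to 141 FPKM in *RGB1Ri-5* at 5 DAF, and 33176 to 37667 and 1717 to 16053 FPKM at 10 DAF. All 11 were called lower in *RGB1Ri-5* at 5 DAF, against 10.1% of all tested genes. At 10 DAF 7 were called lower and 1 higher, against 3.33% and 36.4%, or 10 lower and 1 higher after rescaling by the median of ratios, against 9.09% and 9.25%. The gene called higher, LOC_Os01g55690, was not listed in the 3 *WYJ8* libraries of 10 DAF, where other storage protein genes were high, so its 0 there may be a failed estimate. Without it the sum of the other 10 genes was 4897 to 11376 FPKM in *WYJ8* and 89.4 to 124 FPKM in *RGB1Ri-5* at 5 DAF, and 33176 to 37667 and 1706 to 12288 FPKM at 10 DAF. GLUA2, a glutelin, differed by -7.39 at 5 DAF and -8.26 at 10 DAF. The sum of 5 embryo markers was 340 to 1525 and 14.4 to 19.8 FPKM at 5 DAF, and 4579 to 4754 and 18.7 to 470 FPKM at 10 DAF. Endosperm markers in *RGB1Ri-5* at 5 DAF were thus near 0 beside those of *WYJ8*, and in whole grains fewer cells of a type and less RNA per cell cannot be told apart.

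RAmy3E ranked with the endosperm sum in the libraries that stood apart. The third *WYJ8* replicate of 5 DAF had 18562 FPKM of endosperm markers and 39.7 FPKM of RAmy3E, against 8443 and 6421 FPKM of markers with 5.41 and 7.45 FPKM in the other 2 replicates. The second *RGB1Ri-5* replicate of 10 DAF had 16053 FPKM of markers and 4.28 FPKM of RAmy3E, against 2931 and 1717 FPKM with 0.158 and 0.153 FPKM. Without LOC_Os01g55690 the marker sums of these same libraries were 11376 FPKM against 6886 and 4897 FPKM, and 12288 FPKM against 2923 and 1706 FPKM. Over the 12 libraries, Pearson's r of log2 values with the endosperm sum was 0.85 for RAmy3E and -0.83 for RAmy2A (0.86 and -0.81 without that gene), and with the green pericarp sum it was -0.79 and 0.87. These are descriptions, since the libraries form 4 groups of 3 that share genotype and stage. Their part in the differences of the alpha-amylases was not tested.

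The agreement was not complete. The second *RGB1Ri-5* replicate of 10 DAF had about as much endosperm marker signal as the third *WYJ8* replicate of 5 DAF, 16053 and 18562 FPKM, and 4.28 against 39.7 FPKM of RAmy3E. Without LOC_Os01g55690 its marker sum was the higher of these, 12288 and 11376 FPKM. Likewise the *RGB1Ri-5* library of 10 DAF with the highest green pericarp sum, 3943 FPKM, had 4.97 FPKM of RAmy2A, and the *WYJ8* library of 10 DAF with 2158 FPKM had 7.01 FPKM. In embryo markers the second *RGB1Ri-5* replicate of 10 DAF had 470 FPKM and the third *WYJ8* replicate of 5 DAF 1525 FPKM. *WYJ8* replicates 1 and 2 of 5 DAF had 420 and 340 FPKM of embryo markers, with 5.41 and 7.45 FPKM of RAmy3E. The part of embryo content in RAmy3E was not tested.

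**Figure D4:**
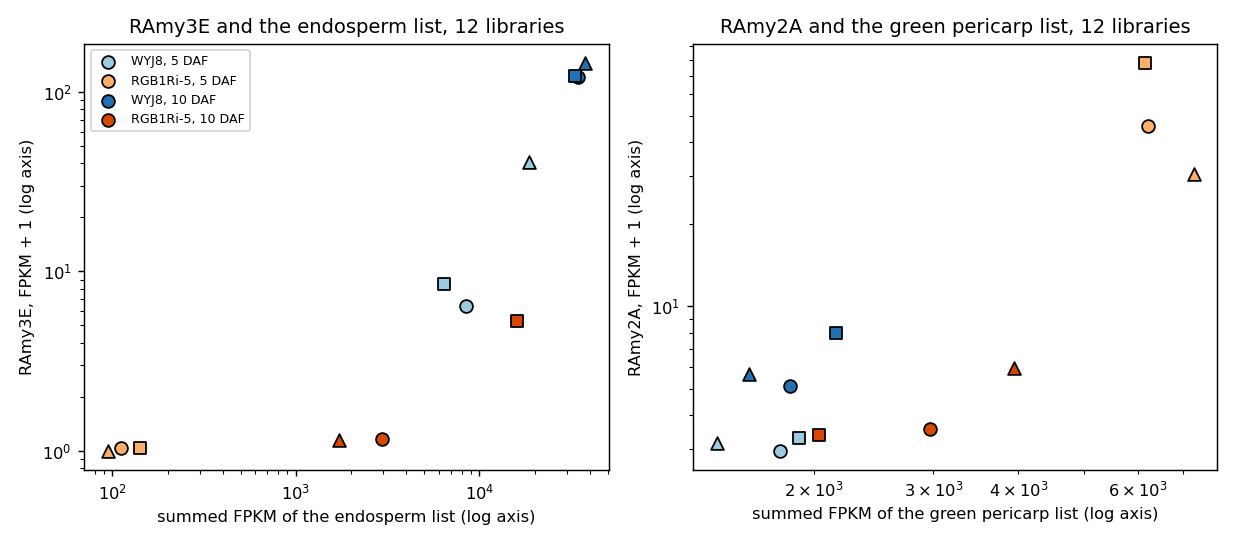
RAmy3E against the summed FPKM of the endosperm list (left) and RAmy2A against that of the green pericarp list (right) in the 12 libraries, all axes logarithmic and FPKM + 1 on the vertical axes, with circles, squares and triangles for replicates 1, 2 and 3. The third *WYJ8* replicate of 5 DAF and the second *RGB1Ri-5* replicate of 10 DAF lie right of and above the others of their groups on the left, and the 3 *RGB1Ri-5* libraries of 5 DAF lie apart on the right.

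The genes whose pattern was most like that of RAmy3E, by Pearson's r of log2(FPKM + 1) over the 12 libraries, were LOC_Os03g10110 (r = 0.996), LOC_Os08g23170 (r = 0.995) and LOC_Os07g44430 (r = 0.993). Their mean levels in *WYJ8* at 10 DAF were 220, 161 and 352 FPKM, and in *RGB1Ri-5* at 5 DAF 0.152, 0.0362 and 0.419 FPKM.

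Other loci of starch breakdown were taken from a list of 23, of which 20 were tested. At 5 DAF 5 were called higher and 2 lower in *RGB1Ri-5*, against 10.8% and 10.1% of all tested genes, with a median log2 fold change of 0.16 against -0.07 for all tested genes. Without LOC_Os07g47120, which passed the filter only through *RGB1Ri-5* at 5 DAF, 4 of 19 were called higher and 2 lower. The summed level of the list was 690 to 932 FPKM in *WYJ8* and 2189 to 3797 FPKM in *RGB1Ri-5* at 5 DAF, and the gain came largely from LOC_Os03g04770 and LOC_Os10g32810, for which the tables used here give no name.

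LOC_Os10g32810 had 14.1, 32.5 and 25.2 FPKM in *WYJ8* and 1979, 1104 and 1565 FPKM in *RGB1Ri-5* at 5 DAF. It had 9.41, 15.5 and 14.6 FPKM in *WYJ8* and 21.9, 15.0 and 199 FPKM in *RGB1Ri-5* at 10 DAF. LOC_Os03g04770 had 7.60, 9.71 and 10.4 FPKM in *WYJ8* and 1050, 380 and 1048 FPKM in *RGB1Ri-5* at 5 DAF, and 8.01 to 12.6 FPKM and 9.81 to 26.1 FPKM at 10 DAF. Both were far above every other library in the *RGB1Ri-5* libraries of 5 DAF, and only LOC_Os10g32810 had a high library at 10 DAF. Their log2 fold changes at 5 DAF were 5.99 (SE 0.73, adjusted p = 4.22e-05) and 6.20 (SE 0.41, adjusted p = 5.07e-07).

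Another locus of the list without a name, LOC_Os07g47120, averaged 46.6 FPKM in *RGB1Ri-5* at 5 DAF and 0.936 FPKM over the other 3 groups, so the direction of its difference of 5.02 was largely fixed by the filter. LOC_Os01g63270 rose by 1.73. DPE2, the glucanotransferase that uses maltose in the cytosol, had 25.4 to 31.0 FPKM in *WYJ8* and 67.9 to 78.3 FPKM in *RGB1Ri-5* and rose by 1.42 (adjusted p = 8.4e-05). The 2 loci called lower were LOC_Os03g55090, at 178 to 372 against 11.7 to 14.6 FPKM (-4.29, adjusted p = 5.17e-06), and LOC_Os01g04190 (-1.15, adjusted p = 0.000913). Without the third *WYJ8* replicate the latter was -0.96 and no longer called. LOC_Os03g55090 was called lower as all 11 endosperm markers were. It has no name in the sources used, so a role in breakdown rests on the list alone and was not tested. The 3 largest increases had their lowest *RGB1Ri-5* value in replicate 2, the library in which RAmy2A, RAmy1C and RAmy3D were highest.

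From 5 to 10 DAF in *RGB1Ri-5*, LOC_Os03g04770 (-5.64), LOC_Os10g32810 (-5.17) and LOC_Os07g47120 (-4.56) fell on the log2 scale, and 5 loci of the list were called lower and 1 higher, or 4 and 1 of 19 without LOC_Os07g47120, against 9.35% and 7.56% of all tested genes. Of the alpha-amylases, RAmy2A was called lower in the same comparison. RAmy1C and RAmy3D were called lower too, in the direction that the filter had largely fixed. At 10 DAF 6 of the 20 loci were called higher and 3 lower in *RGB1Ri-5*, against 36.4% and 3.33% of all tested genes, with a median of 0.55, which was under the 0.80 of all genes. After rescaling by the median of ratios the counts were 1 and 5, against 9.25% and 9.09%. LOC_Os01g63270 was called higher with either scale (2.04 and 1.07), and LOC_Os06g46284 and LOC_Os03g22790 were called lower with either (-2.72 and -3.71, and -1.29 and -2.27). PWD, the phosphoglucan water dikinase that phosphorylates starch granules, differed by 1.63 (adjusted p = 6.29e-06) and by 0.73 after rescaling, which is under the fold limit.

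With stage in *WYJ8* 2 of the 20 loci were called higher and 5 lower, against 2.11% and 33.3% of all tested genes. After rescaling by the median of ratios limma called 7 higher and 0 lower (3 lower at an unadjusted p under 0.05), against 7.05% and 7.37%. LOC_Os06g46284 rose by 2.81 and LOC_Os03g22790 by 1.34, as RAmy3E did, whereas LOC_Os01g63270 (-1.45) and LOC_Os03g01750 (-1.33) were called lower on the deposited scale and differed by -0.50 and -0.36 after that rescaling, both under the fold limit.

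**Figure D5:**
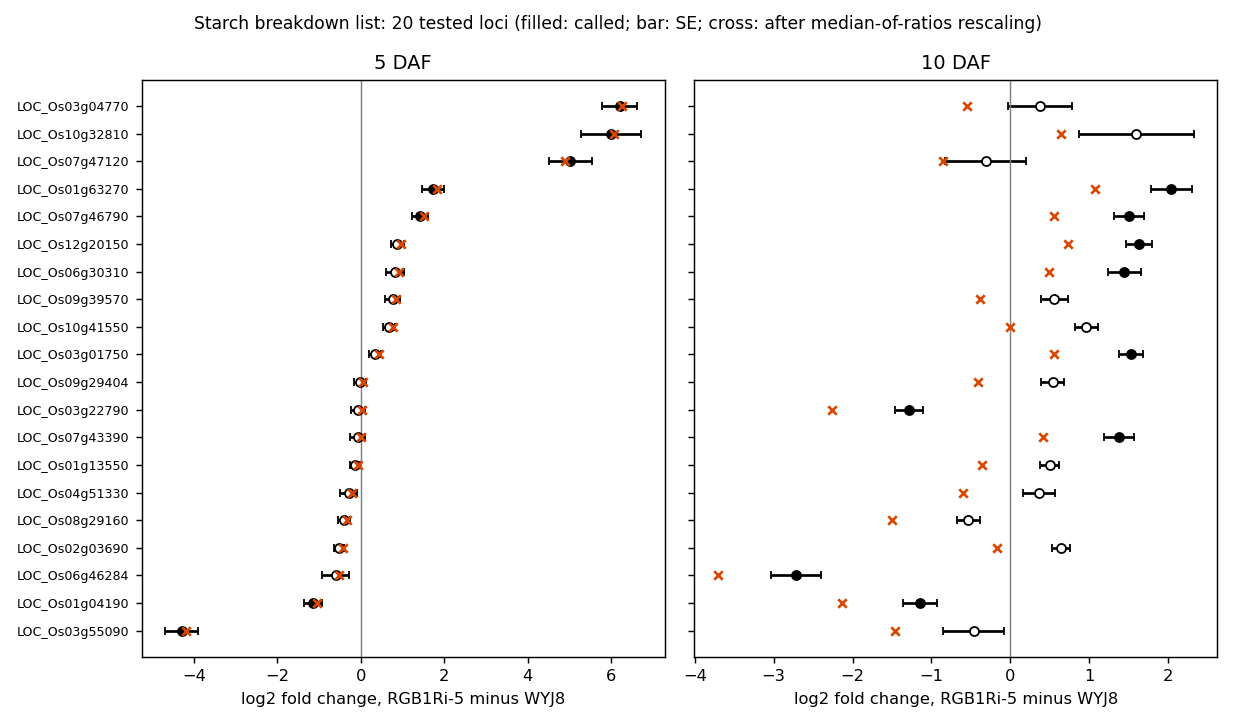
Log2 fold change of *RGB1Ri-5* minus *WYJ8* at 5 and 10 DAF for the 20 tested loci of the starch breakdown list, ordered by the 5 DAF value (circles with SE, filled where called), and the same after rescaling by the median of ratios (crosses). Loci LOC_Os03g04770, LOC_Os10g32810 and LOC_Os07g47120 lie between 5.02 and 6.20 at 5 DAF, and the crosses lie left of the circles at 10 DAF.

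Regulators of alpha-amylase genes were taken from a list of 14, all of which were tested. At 5 DAF 1 was called higher and 4 lower in *RGB1Ri-5*, against 10.8% and 10.1% of all tested genes. CIPK15, a protein kinase that links low oxygen to sugar signalling and to alpha-amylase in rice seedlings, had 2.71 to 5.28 FPKM in *WYJ8* and 15.2 to 17.3 FPKM in *RGB1Ri-5*, a difference of 1.79 (adjusted p = 3.95e-05). LOC_Os02g15350 (-6.47) and LOC_Os07g08420 (-3.94), without names in the tables used, were lowest relative to *WYJ8*, followed by VP1, a seed maturation factor (-3.45), and GID2, the F-box protein of gibberellin signalling (-1.16). VP1 is also among the embryo markers. All 11 endosperm markers were called lower in the same comparison, and the part of tissue composition in the differences of the regulators was not tested. GAMYB, the gibberellin-induced activator of alpha-amylase genes in aleurone, had 16.1 to 20.6 FPKM in *WYJ8* and 15.7 to 18.8 FPKM in *RGB1Ri-5*, which overlapped (-0.14, adjusted p = 0.432).

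At 10 DAF 8 of the 14 regulators were called higher and 3 lower, against 36.4% and 3.33% of all tested genes. After rescaling by the median of ratios 3 were higher and 4 lower, against 9.25% and 9.09%. WRKY71 and SLR1, repressors in gibberellin signalling, differed by 2.24 and 2.08 and by 1.38 and 1.12 after rescaling, and both were called with either scale. MYBS1, the other regulator called higher with either scale, differed by 2.06 and by 1.19 after rescaling. LOC_Os07g08420 (-3.23) and VP1 (-2.73) were again lower. With stage in *WYJ8* 2 were called higher, LOC_Os07g08420 (1.91) and VP1 (1.21), and 7 lower, with SLR1 (-2.44) and WRKY71 (-1.81) the lowest, against 2.11% and 33.3% of all tested genes. After rescaling 4 were higher and 1 lower, against 7.05% and 7.37%.

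Inhibitors of alpha-amylase and the related seed albumins, 8 of 9 of which were tested, were lower in *RGB1Ri-5* at both stages. RASI, the bifunctional inhibitor of alpha-amylase and subtilisin, had 45.9, 36.1 and 74.9 FPKM in *WYJ8* and 2.78, 2.71 and 2.62 FPKM in *RGB1Ri-5* at 5 DAF. It had 551, 475 and 494 FPKM in *WYJ8* and 23.3, 51.1 and 14.7 FPKM in *RGB1Ri-5* at 10 DAF. Genotypes did not overlap at either stage, and the log2 fold changes were -3.78 (adjusted p = 6.63e-06) and -4.22 (adjusted p = 3.52e-06). Of the 8 tested, 7 were called lower at 5 DAF (median -5.40) and 8 at 10 DAF (median -6.66), against 10.1% and 3.33% of all tested genes, and the same counts were obtained after rescaling by the median of ratios.

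RA5, a seed allergenic albumin of this family, differed most at 5 DAF (-8.21), followed by LOC_Os07g11380 (-6.45), and RA16 (-6.92) and RAG1 (-6.87) at 10 DAF. In *WYJ8* all 8 rose with stage (median 4.33), against 2.11% of all tested genes, led by LOC_Os07g11310 (6.77) and LOC_Os07g11630 (5.34). These genes are highly expressed in maturing grain tissue and moved with the endosperm and embryo markers given above. Their highest *WYJ8* value of 5 DAF was in the third replicate for RASI and RA5, and their highest *RGB1Ri-5* value of 10 DAF was in the second. The part of tissue composition in these differences was not tested.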

How the data were processed

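RNA of grains, which the study also calls caryopsis, was sequenced in 12 libraries, 3 for each genotype (*WYJ8*, *RGB1Ri-5*) and stage (5 and 10 DAF). The authors filtered reads, used TopHat2 2.1.0 for mapping to MSU Release 7 and deposited FPKM that Cufflinks 2.1.1 gave for each gene of a library (versions per the submitters' processing notes). Neither counts nor depth are part of these values. Low values did not fall on a shared step, so reads could not be recovered, and no interval or floor that needs depth is given. Unlisted genes were set to 0. A group of 25 tested genes had a replicate without a listing where its fellow replicates averaged above 5 FPKM, and 0 of them were alpha-amylases.

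Genotype, stage and replicate came from the sample labels. Genes averaging 1 FPKM or more were tested on log2(FPKM + 1) in R 4.3.3 with limma 3.58.1, in a single model of the 4 groups with a trend in the empirical Bayes step, and p-values were adjusted over all 21470 tested genes by Benjamini-Hochberg. A call needed an adjusted p under 0.05 and a log2 difference of 1 or more. Fold changes on that scale understate those of low genes. The Cufflinks test of the study needs mapped reads and was not repeated. The procedure was tested on simulated data. Replicate numbers are shared between groups. The correlation of deviations of same-numbered samples was -0.27 to -0.09 between the genotypes at 5 DAF, -0.23 to -0.01 at 10 DAF, 0.11 to 0.25 between the stages of *WYJ8* and -0.10 to 0.16 between those of *RGB1Ri-5*. Samples of different numbers were not correlated, so the values between the stages of *WYJ8* are only a hint of pairing. No pairing is stated in the design, and the main fit used none.

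Alternatives were a pseudocount of 0.1, no filter and a mean of at least 5 FPKM, 4 rescalings, only the libraries compared, no trend, a replicate block, each library left out, and, chosen after the data were seen, both uneven libraries left out and the block in *WYJ8* alone.

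The loci and lists were chosen with earlier results of these data known. Named were all 9 alpha-amylases, *RGB1*, up to 2 called genes of largest change per direction and list in the genotype contrasts and in *WYJ8* with stage, and the 3 genes most like RAmy3E with a mean of at least 5 FPKM. RASI, GAMYB and MYBS1 were added to these after their values were seen. Symbols of listed genes other than the alpha-amylases came from a RefSeq table of another assembly, where chromosome and gene span (within 15%) matched. Coordinates are those of the deposited values. No sequence was used here.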

Additional observations from a re-analysis of the deposited data

Results flagged for a closer look

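The interaction of genotype and stage had an adjusted p under 0.05 by limma for 5 alpha-amylases. RAmy2A and RAmy3E were called lower among the 3 loci that passed the filter without their highest group. Of all tested genes, 6.94% were called lower and 41.4% higher. RAmy1C and RAmy3D were called lower too, with the limit given below. The genotype effect at 10 DAF minus that at 5 DAF was -4.50 for RAmy2A on the log2 scale (adjusted p = 8.07e-06, 3.01e-06 to 6.74e-05 over its alternatives), and *RGB1Ri-5* was above *WYJ8* in all 3 libraries of 5 DAF. For RAmy1C it was -2.70 and for RAmy3D -1.60. Both RAmy1C and RAmy3D passed the filter only through *RGB1Ri-5* at 5 DAF. The filter thus largely fixed the direction of their values, which describe size only.

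RAmy3E differed by -2.40 (adjusted p = 0.0344), with *RGB1Ri-5* below *WYJ8* in all 3 libraries at both stages. Its adjusted p ran from 8.32e-07 to 0.523 over the alternatives, and its call was lost in 12 of 22. With a pseudocount of 0.1 the RAmy3E interaction was -0.99, under the fold limit. Its size thus depended on the pseudocount, since the *RGB1Ri-5* values of 5 DAF lie near 0. LOC_Os04g33040 differed by 0.94 (adjusted p = 0.000267), under the fold limit, and by -0.094 (adjusted p = 0.494) after rescaling by the median of ratios. The measured *RGB1* level, which may include reads of the hairpin, was higher at 10 DAF in the libraries labelled *RGB1Ri-5*, by 1.20. After rescaling by the median of ratios that difference was 0.24 and was not called. The part of the *RGB1* level in the differences of the alpha-amylases was not tested.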

How the results depend on the processing

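Counts of alpha-amylases below include RAmy1C and RAmy3D, whose direction the filter largely fixed. Among the alternatives, shares of all tested genes were computed only under the median of ratios. The counts in this section therefore show how calls depended on the setting, and nothing more is read from them. The calls of RAmy1C, RAmy2A and RAmy3D at 5 DAF and of RAmy3E at both stages kept their direction and their side of the threshold in every alternative that tested them. At 10 DAF, 0 alpha-amylases were called higher and 2 lower under each of median of ratios, quantile normalization and an equal total without the 100 highest genes. Of all tested genes, 9.25% were called higher and 9.09% lower there under the median of ratios. With stage in *WYJ8*, 2 were called higher under these scalings and with a pseudocount of 0.1, and 1, 0 and 1 were called lower under the scalings in that order. The shares of all tested genes with stage in *WYJ8* were 7.05% higher and 7.37% lower under the median of ratios. With a mean of at least 5 FPKM, which leaves RAmy1C and RAmy3D untested, 1 was called higher at 5 DAF and 1 lower with stage in each genotype, and 2 were lower in the interaction. In the interaction 1 was called higher with an equal total or without both uneven libraries.

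Starch breakdown loci called higher at 10 DAF were 1, 1 and 2 of 20 under the same 3 scalings, and 5 were called lower under the median of ratios and the equal total without the highest genes. Under the median of ratios 9.25% of all tested genes were called higher there and 9.09% lower. With stage in *WYJ8* 7, 5 and 4 were called higher and 0 lower under the 3 scalings, against 7.05% and 7.37% of all tested genes under the median of ratios. In the interaction 1 was called higher under each, and 8 lower under the median of ratios. Without both uneven libraries 1 was called lower at 5 DAF and 3 with stage in *RGB1Ri-5*.

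Leaving out each library in turn gave 1 to 2 alpha-amylases called higher and 1 to 2 lower with stage in *WYJ8*, and 0 to 1 called higher and 3 to 4 lower in the interaction. RAmy2A with stage in *WYJ8* was called without *WYJ8* replicate 2 of 5 DAF (1.01) or replicate 1 (1.11) or 3 (1.03) of 10 DAF. LOC_Os04g33040 with stage in *WYJ8* lost its call without the second replicate of 5 DAF (-0.96). The RAmy3E interaction lost its call without any library other than the third *WYJ8* replicate of 5 DAF (-3.22) and the second *RGB1Ri-5* replicate of 10 DAF (-3.13), with adjusted p of 0.0538 to 0.0876. Starch breakdown loci called lower were 1 to 2 at 5 DAF, with 1 without the third *WYJ8* replicate, and 3 to 5 with stage in *RGB1Ri-5*, with 3 without the second replicate of 10 DAF.

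Directions that turned were those of RAmy3D at 10 DAF (-0.019 under the median of ratios and -0.28 under quantile normalization), of LOC_Os04g33040 with stage in *RGB1Ri-5* (0.018 under the equal total without the highest genes) and of its interaction (-0.094 under the median of ratios), and none of these values was called. The cause was not tested. The replicate block changed none of 54 results, with RAmy2A at 3.93 at 5 DAF under the block. The pairing hint in *WYJ8* left RAmy3E at 3.31 with stage under the block (adjusted p = 0.00085). Depth is unknown, so values under 1 FPKM carry an error that cannot be given, and the loci under the filter were not compared further.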
